A study of Mus musculus with 10 samples.

Results

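The mitochondrial genome of the mouse carries 37 genes, and all of them are rows of the deposited gene table (the genes placed on chromosome MT, 37 of 55401 genes). They are 13 genes for proteins, 22 for tRNAs and 2 for rRNAs. Positions are those of build GRCm38, and each of the 37 had the same start, end and strand in the GENCODE M21 annotation. Membership followed from chromosome and gene class, with no measured value in the rule. The set itself was chosen with earlier results of these data known.

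Mitochondrial DNA is a small circle that is read on both strands as long RNAs covering many genes. The tRNAs lie between most of the other genes, and cutting them out releases the mRNAs and rRNAs, an arrangement known as tRNA punctuation. The mRNAs encode core subunits of complexes I, III and IV of the respiratory chain and of the ATP synthase, while the rRNAs and tRNAs serve translation inside the organelle. Round spermatids are haploid germ cells whose mitochondria later form the sheath of the sperm midpiece.

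Adult male CD1 mice, an outbred stock, had the testes in contact with water at 42 °C (heat, 5 mice) or at 33 °C (control, 5 mice) for 30 minutes under isoflurane. After waking they were killed and round spermatids were isolated, so all 10 libraries share anaesthesia, recovery and isolation. Stranded libraries were made from total RNA after removal of rRNA. The labels give no measure of purity.

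Total counts per library were 60623568 to 102086073 at 42 °C, against 92311183 to 117723075 at 33 °C. All 25 markers of round spermatids had counts, with a summed level of 3160 to 4827 CPM at 42 °C, against 2355 to 4308 CPM at 33 °C. CPM are counts per 1000000 counts of a library, with library sizes scaled by the TMM method of edgeR. Markers of spermatocytes summed to 1307 to 1748 CPM at 42 °C, against 1685 to 1943 CPM at 33 °C, and those of elongating spermatids to 6243 to 12627 CPM and 6499 to 9325 CPM in the same order of groups. The 11 Leydig cell markers summed to 39.5 to 74.5 CPM at 42 °C, against 28.7 to 69.0 CPM at 33 °C, the 14 Sertoli cell markers to 12.4 to 29.1 CPM and 12.7 to 25.1 CPM, and the macrophage and leukocyte markers to 7.95 to 10.7 CPM and 8.45 to 12.3 CPM. Markers of spermatogonia, stromal cells and endothelium summed to 13.9 to 29.8 CPM in every library, and erythroid markers to at most 1.00 CPM. No member of any marker list passed the edgeR test, and none was at 0 in all libraries. The log2 fold change was above 0 for 23 of 25 round spermatid markers, 16 of 18 elongating spermatid markers, 5 of 20 spermatocyte markers and 2 of 10 tested Leydig cell markers, against 48.9% of all features. In bulk RNA, fewer cells of a type and less RNA per cell cannot be told apart.

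The tRNA genes on which the comparisons below turn are shown first, 5′ to 3′ in DNA letters as in the GENCODE M21 transcripts, with the anticodon in capitals (its occurrence nearest to the middle of the gene). They are tryptophan tRNA (mt-Tw, chrMT:4950-5016, plus strand) and methionine tRNA (mt-Tm, chrMT:3845-3913, plus strand), which had the largest log2 fold changes of the tested members. A leucine tRNA (mt-Tl1, chrMT:2676-2750, plus strand) had the most counts of the 22, and a serine tRNA (mt-Ts1, chrMT:6870-6938, minus strand) had the most counts on its strand.
mt-Tw: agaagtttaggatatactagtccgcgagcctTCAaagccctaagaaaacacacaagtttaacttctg
mt-Tm: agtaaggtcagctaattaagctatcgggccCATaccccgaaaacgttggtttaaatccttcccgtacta
mt-Tl1: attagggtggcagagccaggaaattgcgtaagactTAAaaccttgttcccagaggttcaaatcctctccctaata
mt-Ts1: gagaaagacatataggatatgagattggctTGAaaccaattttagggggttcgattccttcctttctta

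Mitochondrial transcripts took under 1% of each library, and their share differed more between mice of a group than between the groups. At 42 °C the share was 0.378%, 0.360%, 0.387%, 0.821% and 0.373% in replicates 1 to 5. At 33 °C it was 0.285%, 0.299%, 0.816%, 0.546% and 0.283%. One mouse at 42 °C (replicate 4) and 2 at 33 °C (replicates 3 and 4) stood above the rest, and the groups overlapped. The mean share was 0.464 ± 0.20% at 42 °C, against 0.446 ± 0.235% at 33 °C (SD, n = 5 each). They differed by 0.0181 percentage points, with an exact two-sided permutation p of 0.889 (0.960 after adjustment over the 8 shares compared here). Exact 95% intervals of single libraries, which cover counting error only, were narrow beside this spread, for example 0.820% to 0.823% in 42 °C replicate 4.

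Without 42 °C replicate 4 the difference turned to -0.0712 percentage points, and without 33 °C replicate 3 it was 0.110, so neither direction was stable. Of the summed level of Leydig cell markers, 68.0% to 93.8% in each library was Scarb1, a lipoprotein receptor. Without it the other markers summed to 3.51, 3.66, 3.94, 6.42 and 9.04 CPM at 42 °C, against 4.63, 5.56, 22.1, 3.55 and 5.04 CPM at 33 °C. The highest sum was that of 33 °C replicate 3, which also had the highest mitochondrial share of its group, while 42 °C replicate 4 came after 42 °C replicate 5, and 33 °C replicate 4 was the lowest of its group. Among the libraries at 33 °C, replicate 3 was also the highest for markers of Sertoli cells (25.1 CPM), stromal cells (28.6), spermatogonia (27.3) and elongating spermatids (9325), and for erythroid markers (1.00). By summed level it was not the highest for markers of round spermatids, spermatocytes, macrophages and leukocytes, or endothelium. Of the macrophage and leukocyte sum, 38.8% to 59.0% in each library was Adgre1. Without Adgre1 this sum was 7.06 CPM in 33 °C replicate 3, the highest at 33 °C, against 4.08 to 5.12 CPM in the others at 33 °C. The part of other cell types in the mitochondrial share was not tested.

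**Figure D1:**
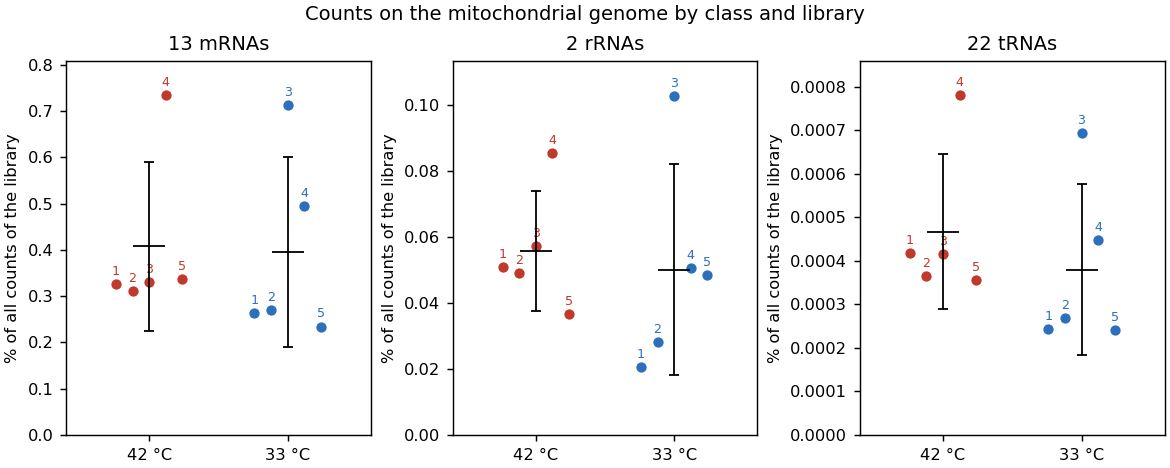
Share of all counts (percent) on the mitochondrial mRNAs, rRNAs and tRNAs in each library, 42 °C left of 33 °C, with points numbered by replicate, the mean as a bar and the SD as whiskers. Replicate 4 at 42 °C and replicate 3 at 33 °C are the highest of their groups in each panel, and the groups overlap in all 3 panels.

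By class, mRNAs made up most of the mitochondrial counts. They took 0.408 ± 0.183% of all counts at 42 °C, against 0.395 ± 0.206% at 33 °C (exact permutation p = 0.960, n = 5 each). The rRNAs took 0.0558 ± 0.0181% at 42 °C, against 0.0501 ± 0.0320% at 33 °C (exact permutation p = 0.722). The tRNAs took 0.000467 ± 0.000178% at 42 °C, against 0.000379 ± 0.000196% at 33 °C (exact permutation p = 0.468). The adjusted p was 0.960 for each of these 3 classes. Within the mitochondrial counts, rRNAs held 12.4 ± 2.17% at 42 °C, against 11.1 ± 3.85% at 33 °C (exact permutation p = 0.532, adjusted 0.960).

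No mitochondrial gene passed the test between the temperatures with edgeR. Of the 37 genes, 23 passed the filter on low counts (all mRNAs and rRNAs, and 8 tRNAs), and 0 of these 23 reached an edgeR adjusted p of 0.05, where 24 of all 26025 tested genes and transposon subfamilies did (0.0922%, of which 0.0884% higher and 0.00384% lower at 42 °C). At an unadjusted p under 0.05 there were 2 members, mt-Tw and mt-Tm, against 11.5% of all features. DESeq2 and limma voom each called 1 member, mt-Tw, where they called 1.11% and 0.588% of all features. The log2 fold change, 42 °C over 33 °C, was positive for 15 of the 23 (48.9% of all features) and its median was 0.07, against -0.01 over all features. By class it was positive for 7 of 13 mRNAs, both rRNAs and 6 of 8 tRNAs. With the counts on nuclear copies added to their mitochondrial genes, 11 of the 13 mRNAs had a positive value, and edgeR again called 0 of the 23 members (0.0923% of all features).

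**Figure D2:**
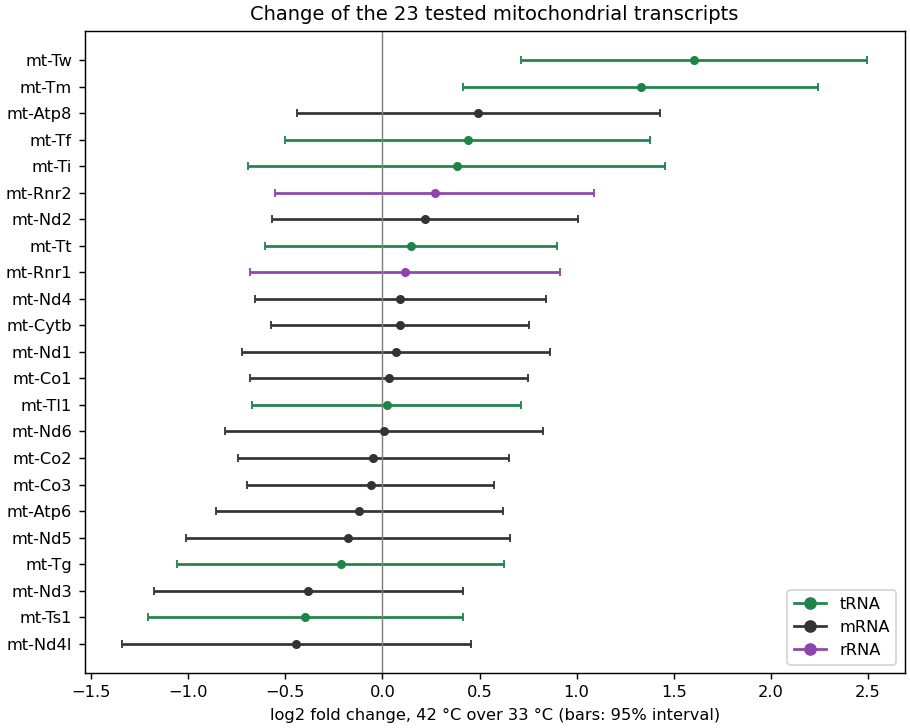
Log2 fold change (42 °C over 33 °C) of the 23 tested mitochondrial transcripts with its 95% interval from the edgeR fit, coloured by class. The intervals of mt-Tw and mt-Tm lie above 0, and those of the other 21 include 0.

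The rRNAs came from depleted RNA, and whether the depletion covers mitochondrial rRNA is not stated in the labels. mt-Rnr1 (chrMT:70-1024), the rRNA of the small mitochondrial ribosomal subunit, had 396, 377, 479, 736 and 298 CPM in the libraries at 42 °C, against 187, 250, 864, 418 and 388 CPM at 33 °C. Its highest value was at 33 °C and so was its lowest. Its log2 fold change was 0.12 (95% interval -0.68 to 0.92). mt-Rnr2 (chrMT:1094-2675), the rRNA of the large subunit, averaged 95.1 ± 31.2 CPM at 42 °C, against 78.9 ± 43.2 CPM at 33 °C (SD, n = 5 each, log2 fold change 0.27, 95% interval -0.55 to 1.09). With limma voom the log2 fold change of mt-Rnr2 was 1.04 (unadjusted p = 0.0203, adjusted p = 0.170), which did not pass either. Between single mice the counts of mt-Rnr1 were 3.36 to 5.96 times those of mt-Rnr2 at 42 °C, against 2.94 to 8.01 times at 33 °C.

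Levels of the mRNAs are compared per kb of gene length, over the 10 libraries. mt-Co1 (chrMT:5328-6872), the catalytic subunit of complex IV (cytochrome c oxidase), held 61.8% of the mRNA counts placed on the mitochondrial genome. Counts on nuclear copies, described below, are not in this share and would lower it. mt-Co1 had 1598 ± 711 CPM per kb (SD, n = 10), above every other member in 10 of 10 libraries. Per gene it had 1933, 1698, 1986, 4640 and 2230 CPM at 42 °C, against 1695, 1835, 4149, 2984 and 1532 CPM at 33 °C. One library at 42 °C (replicate 4) and 2 libraries at 33 °C (replicates 3 and 4) were high, and the ranges overlapped. Its log2 fold change was 0.03, with a 95% interval of the fold of 0.623 to 1.68.

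mt-Rnr1 came next with 460 ± 220 CPM per kb, ahead of mt-Atp8 in 9 of 10 libraries. mt-Atp8 (345 ± 227 CPM per kb) and mt-Nd1 (315 ± 153) could not be put in order, since each was above the other in 5 of 10 libraries. mt-Co3 (228 ± 87.7), mt-Cytb (211 ± 87.6), mt-Nd4 (193 ± 88.8), mt-Co2 (184 ± 74.8) and mt-Atp6 (149 ± 67.4) followed, with neighbours in this order in 6 to 9 of 10 libraries. mt-Nd5 (79.0 ± 42.4), mt-Nd2 (74.4 ± 34.4), mt-Rnr2 (55.0 ± 23.1), mt-Nd4l (37.6 ± 20.3), mt-Nd3 (17.2 ± 8.88) and mt-Nd6 (9.79 ± 4.68) were lowest. The places of mt-Co3, mt-Co2, mt-Atp6, mt-Nd4l and mt-Nd3 change when counts on their nuclear copies are added, as described next.

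**Figure D3:**
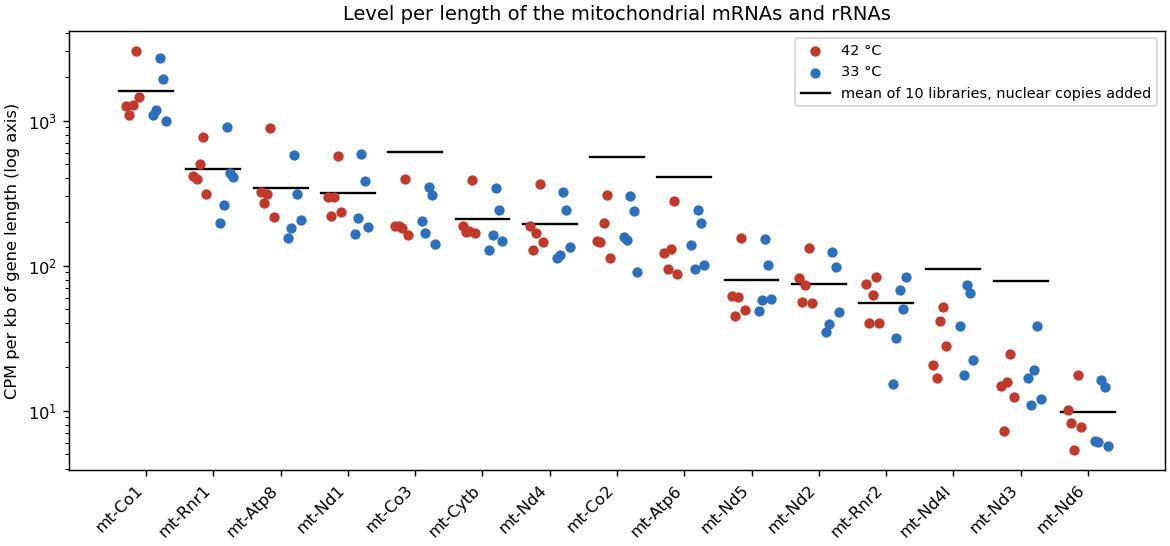
Level per length (CPM per kb, log axis) of the 13 mRNAs and 2 rRNAs in each library, 42 °C left of 33 °C, ordered by the mean of 10 libraries. Black lines give that mean with counts on nuclear copies added, which lies well above the points for mt-Co3, mt-Co2, mt-Atp6, mt-Nd4l and mt-Nd3.

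Sequence of several mitochondrial genes was also counted on chromosome 1. A search of all other GENCODE M21 transcripts with blastn found 16 nuclear pseudogenes that match a mitochondrial gene over at least 150 bases at 90% identity or more. The tRNA genes, of 59 to 75 bases, are too short for this rule, so nuclear copies of them could not be found. Together the 16 pseudogenes held 728546 counts, and 99.7% of these fell on 7 pseudogenes within 4663 bases of chromosome 1 (chr1:24611535-24616197, minus strand). Gm28437 was identical to mt-Co3 over 783 bases, Gm28661 to mt-Co2 over 681, Gm10925 to mt-Atp6 over 678 and Gm10222 to mt-Nd4l over 294. Gm28439 was identical to mt-Nd4 over 876 of its 1378 bases. How the counting shared out reads that match both places is not given in the sources used here, so the counts of a pair cannot be told apart.

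The nuclear copy held more counts than the mitochondrial gene for 5 mRNAs. Over all libraries Gm28438 took 78.0% of the counts of its pair with mt-Nd3, Gm28661 took 67.1% with mt-Co2, Gm10925 took 63.8% with mt-Atp6, Gm28437 took 62.3% with mt-Co3 and Gm10222 took 60.2% with mt-Nd4l. For mt-Co1 the copies Gm29216 and Gm13340 held 4337 and 1512 counts against 2315375 on the gene. Gm28439, though identical to mt-Nd4 over 876 bases, held 717 counts, or 0.287% of its pair. An identical copy thus did not always take most of the counts. With the copies added, mt-Co3 came next after mt-Co1 per length at 603 ± 227 CPM per kb, followed by mt-Co2 at 561 ± 258 (SD, n = 10). mt-Atp6 then had 411 ± 181, mt-Nd4l 95.2 ± 48.7 and mt-Nd3 78.8 ± 28.2 CPM per kb, which is 4.57 times the value of mt-Nd3 alone.

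mt-Nd3 and Gm28438 show how little separates such a pair. They differ at 1 of 345 aligned bases, T3C (mt-Nd3 first, counted from 1 at its 5′ end), shown in capitals in the first 41 bases of each (GRCm38, chrMT:9459-9499, plus strand, and chr1:24613079-24613119, minus strand).
mt-Nd3: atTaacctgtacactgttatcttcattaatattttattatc
Gm28438: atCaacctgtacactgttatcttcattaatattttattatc

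One library divided these reads differently. In 33 °C replicate 1 the copy took 46.2% of the counts of mt-Co3 and Gm28437, against 56.9% to 66.9% in the other 4 libraries at 33 °C and 61.6% to 65.8% at 42 °C. The same library was lowest for Gm28661 with mt-Co2 (50.3%), for Gm10925 with mt-Atp6 (39.2%) and for Gm10222 with mt-Nd4l (25.3%). For Gm28438 with mt-Nd3 it had 68.8%, and 33 °C replicate 4 was lower at 56.4%. All 16 copies together came to 14.5% to 16.1% of mitochondrial plus copy counts at 42 °C, and at 33 °C to 10.2% in replicate 1, 12.9% in replicate 4 and 14.9% to 16% in the other 3. The cause was not tested.

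**Figure D4:**
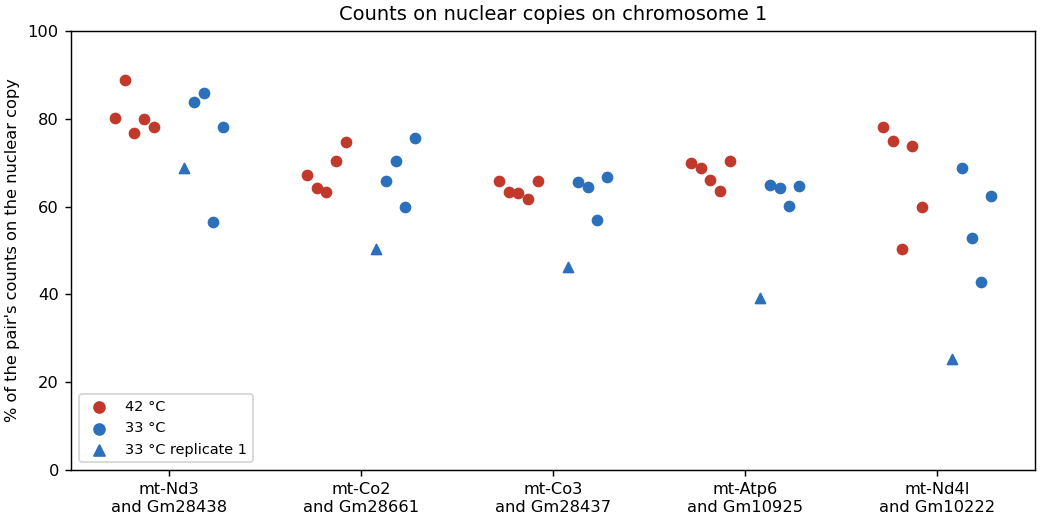
Percent of the counts of a pair (mitochondrial gene plus its nuclear copy on chromosome 1) that fell on the copy, by library, 42 °C left of 33 °C, with 33 °C replicate 1 as a triangle. Most points lie above 50%, and 33 °C replicate 1 is the lowest in 4 of the 5 pairs.

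Among the mRNAs of complex I, the NADH dehydrogenase, values overlapped between the temperatures for all 7. mt-Nd1 averaged 309 ± 134 CPM at 42 °C, against 294 ± 173 CPM at 33 °C (SD, n = 5 each), and mt-Nd4 274 ± 131 CPM at 42 °C, against 257 ± 128 CPM at 33 °C. The log2 fold change was 0.22 for mt-Nd2 (95% interval -0.57 to 1.01), -0.38 for mt-Nd3 (-1.18 to 0.42) and -0.44 for mt-Nd4l (-1.34 to 0.46), and with the copies added it was 0.24 for mt-Nd4l. mt-Nd4l and mt-Nd4 overlap by 7 bases, so their counts are not fully separate.

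mt-Nd5 averaged 135 ± 82.6 CPM at 42 °C, against 153 ± 80.1 CPM at 33 °C (log2 fold change -0.18, 95% interval -1.01 to 0.66). Set against the next complex I gene upstream on the same strand, mt-Nd5 had 0.440, 0.460, 0.474, 0.561 and 0.451 counts per count of mt-Nd4 at 42 °C. At 33 °C the ratios were 0.571, 0.648, 0.630, 0.550 and 0.573. The ratio was lower in 4 of the 5 libraries at 42 °C than in any at 33 °C, and 42 °C replicate 4 lay among the libraries at 33 °C. This pair was picked after the values were seen and was not tested.

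mt-Nd6 (chrMT:13552-14070) is the one mRNA gene on the minus strand. It had 5.29, 4.26, 2.78, 9.18 and 3.99 CPM at 42 °C, against 3.22, 3.14, 8.41, 7.61 and 2.96 CPM at 33 °C. It made up 0.128 ± 0.0305% of mRNA counts at 42 °C, against 0.125 ± 0.0178% at 33 °C (exact permutation p = 0.810, adjusted 0.960). mt-Nd6 overlaps mt-Nd5 by 14 bases on the opposite strand, and the strand setting of the counting is not given in the sources used here.

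mt-Cytb, the mitochondrial subunit of complex III, averaged 249 ± 111 CPM at 42 °C, against 234 ± 101 CPM at 33 °C (log2 fold change 0.09, 95% interval -0.57 to 0.75). In complex IV, mt-Co2 averaged 124 ± 51.6 CPM at 42 °C, against 128 ± 56.6 CPM at 33 °C, and mt-Co3 averaged 175 ± 75.5 CPM at 42 °C, against 182 ± 69.9 CPM at 33 °C (SD, n = 5 each). Their log2 fold changes were -0.05 (-0.75 to 0.65) and -0.06 (-0.70 to 0.58), and with the copies added they were 0.07 and 0.04. None of these passed the test.

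The mRNAs of the ATP synthase went to opposite sides of 0, within wide intervals. mt-Atp8 averaged 82.2 ± 56.6 CPM at 42 °C, against 58.4 ± 35.3 CPM at 33 °C (log2 fold change 0.49, 95% interval -0.44 to 1.43). mt-Atp6 averaged 97.0 ± 53.5 CPM at 42 °C, against 105 ± 42.8 CPM at 33 °C (log2 fold change -0.12, -0.86 to 0.62, and 0.14 with its copies added). The genes overlap by 43 bases, and 42 °C replicate 4 was the highest of all 10 libraries for both, at 182 and 190 CPM.

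The tRNA genes held few counts, 2110 over the 5 libraries at 42 °C, against 1834 over those at 33 °C. They are 59 to 75 bases long. Of the 22, mt-Tn, mt-Tc and mt-Ts2 (asparagine, cysteine and a serine tRNA) had 0 counts in every library, which allows up to 3 counts per library, or 0.0272 to 0.0445 CPM. Another 9 had 1 to 20 counts in all, and 10 had more. A count on a tRNA gene does not say whether the read came from the mature tRNA or from a longer RNA that spans it.

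mt-Tl1, a leucine tRNA between mt-Rnr2 and mt-Nd1, led with 155, 70, 170, 203 and 105 counts at 42 °C, against 89, 108, 265, 159 and 107 counts at 33 °C. In CPM this was 1.53 ± 0.502 at 42 °C, against 1.51 ± 0.721 at 33 °C (log2 fold change 0.02, 95% interval -0.67 to 0.71). The threonine tRNA mt-Tt, next to mt-Cytb, had 279 counts at 42 °C, against 277 at 33 °C. The other tested tRNAs of the plus strand, mt-Tf, mt-Ti and mt-Tg, had 62 to 127 counts per group, and the groups overlapped for all of these.

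mt-Tw, the tryptophan tRNA just past mt-Nd2, had more CPM in each library at 42 °C than in any at 33 °C, without passing the edgeR test. It had 72, 44, 66, 130 and 51 counts at 42 °C, against 14, 16, 51, 31 and 15 counts at 33 °C. In CPM the values were 0.723, 0.652, 0.654, 1.46 and 0.534 at 42 °C, against 0.154, 0.145, 0.517, 0.331 and 0.169 at 33 °C. The lowest library at 42 °C thus stood just above the highest at 33 °C, and mt-Tw was the only one of the 23 tested members whose groups did not overlap, a pattern seen in 1.32% of all features as higher and in 0.68% as lower.

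The log2 fold change of mt-Tw was 1.60 (SE 0.41), a fold of 3.04 with a 95% interval of 1.64 to 5.65. The adjusted p was 0.278 with edgeR, 0.0168 with DESeq2 and 0.0415 with limma voom. Leaving out 1 library at a time gave log2 fold changes of 1.28 to 2.00 and edgeR adjusted p-values of 0.0947 to 0.653. mt-Tw shares 2 bases with mt-Nd2, whose own log2 fold change was 0.22. Per 1000 counts of mt-Nd2, mt-Tw had 8.48 to 11.1 counts at 42 °C, against 3.25 to 4.28 counts at 33 °C, with no overlap.

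mt-Tm, the methionine tRNA just before mt-Nd2, had 18, 11, 25, 47 and 26 counts at 42 °C, against 7, 7, 21, 10 and 8 counts at 33 °C. In CPM 33 °C replicate 3 (0.213) lay above 42 °C replicates 1 and 2 (0.181 and 0.163), so the groups overlapped. The log2 fold change was 1.33 (SE 0.42), and the adjusted p was 0.367 with edgeR, 0.144 with DESeq2 and 0.0642 with limma voom. Along the plus strand mt-Tm, mt-Nd2 and mt-Tw are neighbours, and mt-Nd2 averaged 83.1 ± 33.0 CPM at 42 °C, against 71.4 ± 41.2 CPM at 33 °C.

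Taken against the mitochondrial mRNA counts of the same library, mt-Tw and mt-Tm both separated the groups. Per 10000 mRNA counts mt-Tw had 2.19, 2.33, 1.96, 1.95 and 1.61 counts at 42 °C, against 0.573, 0.502, 0.766, 0.676 and 0.672 counts at 33 °C. mt-Tm had 0.548, 0.583, 0.743, 0.705 and 0.820 counts at 42 °C, against 0.287, 0.220, 0.315, 0.218 and 0.358 counts at 33 °C. On this scale the groups did not overlap for these 2 of the 23 members, both higher at 42 °C, and for 0.4% of all features in that direction and 0.0154% in the other. Nuclear features carry the spread of the mitochondrial share on this scale, so these percentages do not gauge the members.

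An edgeR fit of the whole table with mRNA counts as library size called 0 of the 23 members, against 0.311% of all features. There the log2 fold change was 1.64 for mt-Tw (SE 0.52, adjusted p = 0.299 with edgeR) and 1.28 for mt-Tm (SE 0.56, adjusted p = 1.00 with edgeR), while 2 members and 2.95% of all features had an unadjusted p under 0.05. The SE of mt-Nd2 was 0.43 on this scale and 0.36 on the library scale. For mt-Co1 the SE was 0.43 and 0.33, and for mt-Tw 0.52 and 0.41, in the same order of scales. This fit estimates variance with the help of all features, and nuclear features carry the spread of the mitochondrial share here. The 0 calls therefore cannot decide whether a member differed relative to the mRNA counts. The values of single libraries given above do not depend on this fit.

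**Figure D5:**
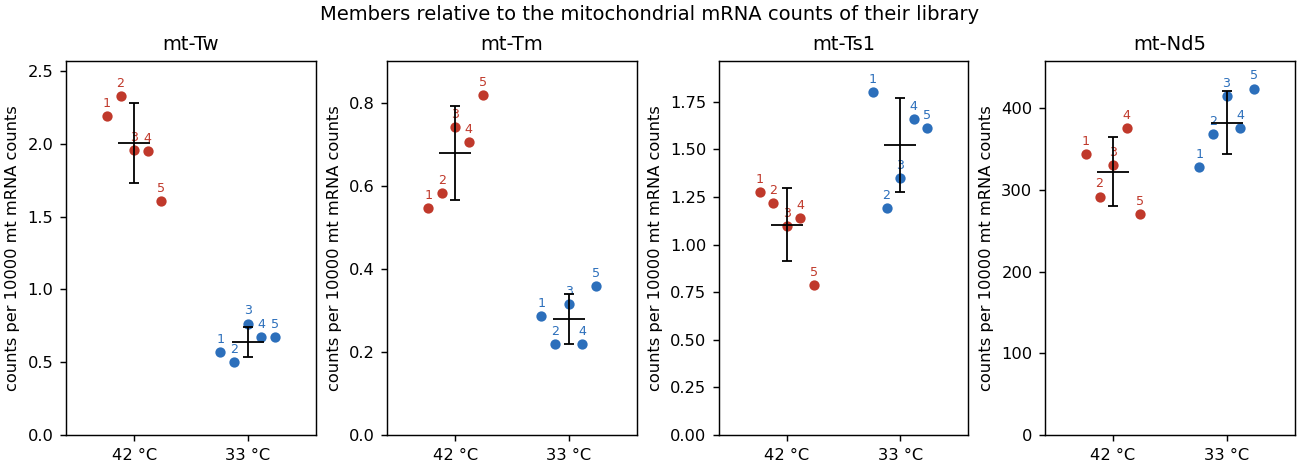
Counts of mt-Tw, mt-Tm, mt-Ts1 and mt-Nd5 per 10000 mitochondrial mRNA counts of the same library, 42 °C left of 33 °C, with points numbered by replicate, the mean as a bar and the SD as whiskers. The groups do not overlap for mt-Tw and mt-Tm, and they overlap for mt-Ts1 and mt-Nd5.

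The share of tRNAs within the mitochondrial counts was higher at 42 °C. It was 0.110%, 0.101%, 0.107%, 0.0950% and 0.0955% at 42 °C, against 0.0850%, 0.0898%, 0.0852%, 0.0821% and 0.0853% at 33 °C, with no overlap. The means were 0.102 ± 0.00695% at 42 °C, against 0.0855 ± 0.00274% at 33 °C (exact permutation p = 0.00794, the smallest that 5 against 5 libraries can give, adjusted p = 0.0317 over the 8 shares, n = 5 each). With mt-Tw left out of both counts the means were 0.0844 ± 0.00635% at 42 °C, against 0.0798 ± 0.00338% at 33 °C, and the difference did not pass (exact permutation p = 0.206, n = 5 each). Without any 1 library at 42 °C the exact permutation p stayed at 0.00794, the smallest that 4 against 5 libraries can give. Over 8 shares that value adjusts to 0.0635 unless another share reaches it too, so the call was then out of reach.

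The tRNA genes of the minus strand, 8 of the 22, were counted far less than the other 14, with 226 and 1884 counts at 42 °C, against 300 and 1534 counts at 33 °C for the 2 strands. Of the 526 counts on the minus strand, 487 lay on mt-Ts1, a serine tRNA that overlaps the end of mt-Co1 by 3 bases on the opposite strand. Without a stated strand setting, reads of an mt-Co1 RNA running past its end cannot be told apart from mt-Ts1. mt-Ts1 had 0.449 ± 0.233 CPM at 42 °C, against 0.592 ± 0.254 CPM at 33 °C (log2 fold change -0.40, 95% interval -1.21 to 0.41).

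The minus strand, whose tRNA counts lay mostly on mt-Ts1, took a smaller share of the tRNA counts at 42 °C. The values were 11.7%, 10.9%, 9.88%, 12.0% and 7.74% at 42 °C, against 20.1%, 12.3%, 14.9%, 19.5% and 16.5% at 33 °C, with no overlap. The means were 10.4 ± 1.71% at 42 °C, against 16.7 ± 3.22% at 33 °C (difference -6.25 percentage points, exact permutation p = 0.00794, adjusted p = 0.0317, n = 5 each). This share has mt-Tw in its denominator, and with mt-Tw left out the means were 12.6 ± 2.26% at 42 °C, against 17.9 ± 3.52% at 33 °C (exact permutation p = 0.0317, adjusted p = 0.0952 over 3 shares). Without any 1 library at 42 °C the exact permutation p was 0.0159, with an adjusted p of 0.0635. The numerator rests on few reads, 226 counts at 42 °C in all, against 300 at 33 °C. Of these, mt-Ts1 held 203 and 284 in the same order. More counts at 42 °C were seen for mt-Tq (8 and 2), mt-Ta (2 and 0) and mt-Tp (8 and 6). Fewer were seen for mt-Te (5 and 7) and mt-Ty (0 and 1), and the rest had none. The lower share is thus mainly that of mt-Ts1, and the share without mt-Ts1 was not tested. The highest values, in 33 °C replicates 1 and 4, came from the libraries with the lowest part of counts on nuclear copies (10.2% and 12.9%). Nuclear copies of tRNA genes were outside the search, and a link between this share and the division of reads was not tested.

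A list of nuclear genes was drawn up to cover the copying, transcription and processing of mitochondrial nucleic acids. Whether each gene of the list acts in mitochondria of these cells was not checked. It gave 0 calls with edgeR among 61 tested genes, against 0.0922% of all features, and the smallest edgeR adjusted p was 0.167. Of the 61, 4 had an unadjusted p under 0.05, against 11.5% of all features. The log2 fold change was above 0 for 14 of the 61, against 48.9% of all features, and its median was -0.15, against -0.01 over all features. Polrmt, the mitochondrial RNA polymerase, averaged 14.4 ± 0.892 CPM at 42 °C, against 15.2 ± 0.781 CPM at 33 °C (SD, n = 5 each). Lrpprc, which stabilises mitochondrial mRNAs, averaged 34.5 ± 3.48 CPM at 42 °C, against 34.3 ± 3.54 CPM at 33 °C, and the elongation factor Tefm 1.43 ± 0.0809 CPM at 42 °C, against 1.66 ± 0.222 CPM at 33 °C.

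Tfam, which packages mitochondrial DNA and starts its transcription, had 19.8, 16.4, 18.6, 23 and 48.6 CPM at 42 °C, against 19.8, 12.2, 34.0, 17.1 and 20.3 CPM at 33 °C. Its highest library, 42 °C replicate 5, was not among those with a high mitochondrial share, while its highest at 33 °C, replicate 3, was. Both were the highest of their groups for the summed elongating spermatid markers (12627 and 9325 CPM). A link of Tfam to either was not tested. Polg2, the accessory subunit of the mitochondrial DNA polymerase, had 2.24, 6.05, 2.34, 3.73 and 3.06 CPM at 42 °C, against 1.36, 0.996, 1.94, 1.47 and 0.947 CPM at 33 °C. Every library at 42 °C stood above every one at 33 °C, which held for 1 of the 61 genes and for 1.32% of all features, and the log2 fold change was 1.37 (SE 0.30, adjusted p = 0.167 with edgeR and 0.00142 with DESeq2). The log2 fold change was 1.17 for Mrm1 (SE 0.43), a methyltransferase of mitochondrial rRNA, -0.28 for Mterf3 (SE 0.12) and -0.30 for Angel2 (SE 0.13), and none of these passed the test.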

How the data were processed

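The values are raw, unnormalized counts in 1 deposited table, with a row for each gene or transposon subfamily and a column for each library. That these are counts was judged from the values, all whole numbers. Gene length in the deposited table is end minus start, and lengths here include both ends. Per the submitters' processing notes Trim Galore, cutadapt and DRAGEN were used with builds GRCm38 and mm10, with no versions or roles. Which tool made the counts, with which strand setting, and what was done with reads that match several places is not given in the sources used here.

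All 56547 rows entered edgeR (4.0.16, R 4.3.3), whose quasi-likelihood test was run with TMM factors, filterByExpr (minimum count 10, minimum total 15) and the group as sole term. P-values were adjusted by the Benjamini-Hochberg method over 26025 features, with a threshold of 0.05, and were also computed with DESeq2 1.42.0 and limma 3.58.1 (voom with quality weights). Shares were compared by exact two-sided permutation over all assignments of 5 and 5 libraries, adjusted over 8 shares. Nuclear copies were found with blastn 2.17.0. The edgeR step was tested on simulated counts.

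The members, lists and tests were chosen with earlier results of these data known. Named by rule were the 13 mRNAs, the 2 rRNAs, the 3 tRNAs of highest count, the 3 of smallest p, and of the nuclear list Polrmt, Tfam, Tefm, Lrpprc and the 4 of smallest p. Other genes were named after their values were seen. No 2 libraries of a group were alike within sampling noise (chi-square per degree of freedom of 15.4 or more). The closest pair, 42 °C replicates 1 and 3, had 15.4, and every other pair had 58.9 or more. The labels name no batch. Alternatives covered scaling, filter, tool, replicate block, nuclear copies and each library left out.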

Additional observations from a re-analysis of the deposited data

Results flagged for a closer look

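In 17 of 72 sets of 5 libraries (8 shares and 28 genes, each at both temperatures) 1 library lay far from the other 4, by the gap to its nearest neighbour over the whole range (Dixon's test, where chance flags about 1 set in 20). In 14 of the 17 this library was 42 °C replicate 4. The sets are not independent, since most shares and genes of a library rise with the same mitochondrial counts. The flags are therefore not separate events to be set against that rate.

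In 42 °C replicate 4 the mitochondrial genome took 0.821% of counts, against 0.360% to 0.387% in the other 4 libraries at 42 °C, the mRNAs took 0.735% against 0.311% to 0.336%, and the tRNAs took 0.000781% against 0.000356% to 0.000417%. The same library had 542 CPM of mt-Nd1, 4640 of mt-Co1, 182 of mt-Atp8, 190 of mt-Atp6, 309 of mt-Co3, 501 of mt-Nd4, 281 of mt-Nd5 and 447 of mt-Cytb. It also had 1.04 CPM of mt-Tt, 1.46 of mt-Tw and 0.852 of mt-Ts1. Its total of 90715506 counts lay within the range of the other libraries at 42 °C. Without it the log2 fold change of mt-Tw was 1.28.

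In 33 °C replicate 3 mt-Tm had 0.213 CPM against 0.0634 to 0.107 in the other 4 libraries at 33 °C, and Mrm1 had 0.294 CPM against 0.0676 to 0.121. In 42 °C replicate 5 Tfam had 48.6 CPM against 16.4 to 23 in the other 4 at 42 °C. The causes were not tested.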

How the results depend on the processing

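The count of mitochondrial genes called, 0 with edgeR, became 1 with DESeq2 and 1 with limma voom, mt-Tw in both. Over the whole table edgeR called 24 features, DESeq2 288 and limma voom 153. The count called in the nuclear list, 0 with edgeR, became 1 with DESeq2 (Polg2). Both member counts stayed 0 under the other scalings, filters and left-out libraries. A filter at a mean of 1 CPM removes mt-Tm, mt-Tw, mt-Ts1, mt-Tt and Mrm1, which then have no value. With nuclear copies added, an alternative chosen after the data were seen, log2 fold changes turned sign for mt-Co2 (0.0688), mt-Atp6 (0.137), mt-Co3 (0.0449) and mt-Nd4l (0.239). mt-Co2 also did so with no filter (0.0149).

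Same-numbered libraries did not deviate together (correlations -0.557 to -0.104), so the numbers give no pairing, and no library deviated most like the one of its own number. A replicate block called 0 mitochondrial genes, and 4 features of the whole table against 24 without it. With 32 sign flips its exact permutation p cannot go below 0.0625, and with the block the tRNA share (difference 0.0164) and the minus-strand share (-6.25) had that p. Leaving out mt-Tw, an alternative also chosen later, gave 0.00455 and -5.25.

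Leaving out 1 library at a time, the tRNA share kept a difference of 0.0143 to 0.0182 and the minus-strand share one of -7.34 to -5.40. Without any 1 library at 42 °C the adjusted p of both was 0.0635, which is what the smallest exact permutation p of 4 against 5 libraries (0.00794) gives when 1 of 8 shares reaches it. The tRNA share had that smallest p in all 5 of these comparisons, and the minus-strand share had 0.0159. Other shares turned sign in some of these fits: the mitochondrial genome (-0.0712 to 0.110), mRNAs (-0.0696 to 0.0916), rRNAs (-0.00168 to 0.0188) and mt-Nd6 (-0.00573 to 0.0136). So did the log2 fold changes of mt-Atp6 (-0.52 to 0.093), mt-Atp8 (-0.029 to 0.92), mt-Co1 (-0.31 to 0.31), mt-Co2 (-0.32 to 0.19), mt-Co3 (-0.37 to 0.12), mt-Cytb (-0.23 to 0.35), mt-Nd1 (-0.23 to 0.45), mt-Nd2 (-0.041 to 0.54), mt-Nd3 (-0.63 to 0.023), mt-Nd4 (-0.24 to 0.38), mt-Nd5 (-0.63 to 0.15), mt-Nd6 (-0.31 to 0.27), mt-Rnr1 (-0.12 to 0.56), mt-Tl1 (-0.16 to 0.33), mt-Tt (-0.12 to 0.35), Tfam (-0.085 to 0.54) and Lrpprc (-0.045 to 0.10). The cause was not tested.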
